A study of Mus musculus with 16 samples.

Results

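Lipid droplets are the stores of neutral fat inside cells. In the liver they fill and empty as fatty acids arrive from adipose tissue, are esterified to triglyceride, and are released again for oxidation or for secretion in lipoproteins. The transcripts of 10 genes whose products act at the droplet were followed in the livers of mice that had received a gut microbiota or its vehicle. Plin2, Plin3, Plin4 and Plin5 encode perilipins, the coat proteins of the droplet. Cidea, Cideb and Cidec encode the CIDE proteins, which fuse droplets or hand their lipid to lipoproteins. Pnpla2 encodes the lipase that starts the breakdown of triglyceride, G0s2 encodes the inhibitor of that lipase, and Mgll encodes the lipase that ends it. The genes were chosen by name: every probe whose gene name on the array equalled that of a member was taken, which gave 14 of 56605 probes and 10 of 37074 gene names. All 14 probes and all 10 genes passed the filter on dim probes (5 or more of the 16 arrays with the probe well above background), which left 20400 genes for the tests. Several of these genes, among them Plin2, Plin5 and G0s2, are known to be induced in the liver by fasting, when fatty acids activate the nuclear receptor PPARα. Cidea and Cidec are known as genes of adipocytes and of the fatty liver, and Cideb as a gene of the normal hepatocyte.

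The livers came from male C57BL/6 mice, 10 weeks old, that ate a normal chow (NC) and received no antibiotics. The mice were conventional (Conv) and had a gut microbiota of their own before the gavage. They were gavaged with reduced PBS (Conv + PBS, n = 6), with caecal content of lean mice (Conv + LM, n = 5) or with caecal content of mice made obese by a high-fat diet (Conv + OM(HFD), n = 5). The labels describe the Conv + PBS mice as controls without a transplant, while the methods say that they received the vehicle. Each inoculum was pooled from several donors, so the mice of an inoculated group shared their donors, and all mice were killed after a short fast. RNA of each liver was hybridized to 1 single-dye Agilent array, and every group was spread over both slides. The 75th percentile of the signal lay between 153 and 220 over the arrays, and 49.7 to 58.3% of probes were well above background. Levels are given as log2 of the signal after subtraction of this 75th percentile, so that a difference of 1 is a doubling. Probes differ in brightness, and no level of a gene was set against that of another gene.

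All 8 hepatocyte markers were well above background on all 16 arrays. Of the 10 adipocyte markers, Adipoq and Ucp1 were well above background on 1 array each, Retn on 3, Plin1, the perilipin of adipocytes, on 7 and Cfd on 14. The other 5, Lep, Fabp4, Lipe, Car3 and Adrb3, were well above background on all 16. Markers of immune cells set 2 livers apart. The log2 of the summed level of 6 neutrophil markers was 5.09 in Conv + PBS mouse 1 and 4.99 in Conv + OM(HFD) mouse 25, against 1.66 to 2.11 in the other 14 mice. The summed level of 6 Kupffer cell markers was also highest in these mice, at 7.61 and 6.44, against 4.74 to 5.64 in the others. The counts of slopes and of pairs below are given with and without these livers. In RNA of whole liver, fewer cells of a type and less RNA per cell cannot be told apart.

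No droplet gene separated the inoculated mice from the vehicle mice. At an unadjusted limma p under 0.05, 0 of the 10 genes differed between the Conv + OM(HFD) and the Conv + PBS livers, where 3.25% of all genes did (1.49% higher and 1.76% lower). The count was 0 of 10 between the Conv + LM and the Conv + PBS livers (3.88% of all genes, 1.79% higher and 2.09% lower) and 0 of 10 between the Conv + OM(HFD) and the Conv + LM livers (2.67% of all genes, 1.38% higher and 1.29% lower). After adjustment over all genes no gene of the array passed in any comparison (0%). The methods' t-test, without adjustment, also gave 0 of the 10 genes in each comparison. In no comparison did the values of a droplet gene fall into groups that did not overlap, against 0.225%, 0.279% and 0.431% of all genes in the same order. An F test over the 3 groups passed 2.88% of all genes at an unadjusted p under 0.05 and none of the 10, with p from 0.189 for Cidea to 0.975 for Plin2. The median difference of the 10 genes was 0.14 between the Conv + OM(HFD) and the Conv + PBS livers, 0.040 between the Conv + LM and the Conv + PBS livers, and 0.080 between the Conv + OM(HFD) and the Conv + LM livers, where the medians of all genes were -0.0021, -0.011 and 0.0034. The first 2 comparisons share the Conv + PBS mice. Exact permutation tests given with each gene are two-sided. The number of arrays limits the precision, and the intervals below show which differences it leaves possible.

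**Figure D1:**
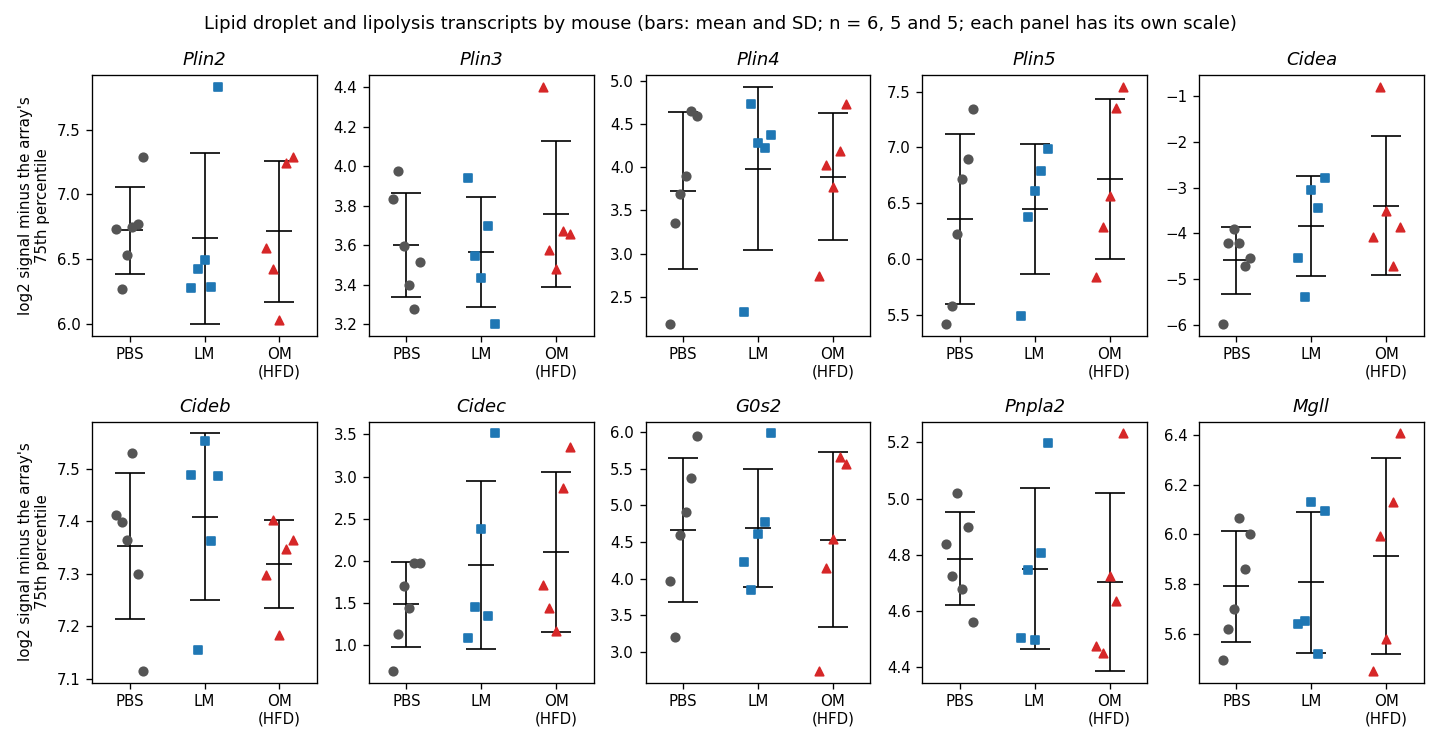
Log2 level (signal minus the 75th percentile of the array) of each gene in every mouse, with circles for the 6 Conv + PBS, squares for the 5 Conv + LM and triangles for the 5 Conv + OM(HFD) mice, mice in order of their number and bars for the group mean and SD. The groups overlap in all 10 panels, and the spread within a group runs from 0.13 (SD) for Cideb to 1.13 for Cidea.

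Among the coat proteins, Plin2, the general perilipin of hepatocyte droplets, had nearly the same mean in all groups. The log2 level of Plin2 ran from 6.27 to 7.29 with a median of 6.74 in the 6 Conv + PBS livers. It was 6.27, 6.42, 6.49, 6.28 and 7.83 in Conv + LM mice 13 to 17. It was 6.58, 6.42, 6.03, 7.24 and 7.29 in Conv + OM(HFD) mice 25, 26, 28, 29 and 30. Conv + LM mouse 17 was the highest of all 16 mice and the other 4 Conv + LM mice lay in the lower range of the Conv + PBS mice. Conv + OM(HFD) mouse 28 was the lowest of all, and the groups overlapped. The difference between the Conv + OM(HFD) and the Conv + PBS livers was -0.0083 (95% interval -0.63 to 0.62, exact permutation p = 0.968). That between the Conv + LM and the Conv + PBS livers was -0.062 (95% interval -0.69 to 0.56, exact permutation p = 0.833). The order of the group means was Conv + PBS, Conv + OM(HFD) and Conv + LM, and no neighbours in it differed beyond their spread.

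Plin5 ran from 5.42 to 7.34 with a median of 6.47 in the 6 Conv + PBS livers. Conv + LM mice 13 to 17 had log2 levels of 5.49, 6.37, 6.61, 6.79 and 6.99. Those of Conv + OM(HFD) mice 25, 26, 28, 29 and 30 were 5.84, 6.29, 6.57, 7.35 and 7.54. Plin5 is the perilipin of oxidative tissues, where it brings the droplet and the mitochondrion together. The highest and the lowest value of each group were more than 1 log2 unit apart, and the groups overlapped. The means were 6.36 ± 0.76 (SD, n = 6) in Conv + PBS, 6.45 ± 0.58 (SD, n = 5) in Conv + LM and 6.72 ± 0.72 (SD, n = 5) in Conv + OM(HFD) mice. Conv + OM(HFD) mice were above Conv + PBS mice by 0.36 (95% interval -0.48 to 1.19, exact permutation p = 0.435), and Conv + LM mice by 0.089 (95% interval -0.74 to 0.92, exact permutation p = 0.829). In the Conv + PBS group the lowest values, 5.42 and 5.57, belonged to mice 1 and 2 and the highest, 7.34, to mouse 6, a spread that the group means do not show.

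For Plin4 the log2 level ran from 2.19 to 4.65 with a median of 3.79 in the 6 Conv + PBS livers. In Conv + LM mice 13 to 17 it was 2.33, 4.73, 4.27, 4.22 and 4.37. In Conv + OM(HFD) mice 25, 26, 28, 29 and 30 it was 2.74, 4.03, 3.77, 4.19 and 4.73. Plin4, a coat of small and new droplets, is best known from adipocytes and muscle. In each group 1 mouse was more than 1 log2 unit below the next: Conv + PBS mouse 1, Conv + LM mouse 13 and Conv + OM(HFD) mouse 25. The group means were 3.73 ± 0.91 (SD, n = 6) in Conv + PBS, 3.98 ± 0.95 (SD, n = 5) in Conv + LM and 3.89 ± 0.73 (SD, n = 5) in Conv + OM(HFD) mice. The difference was 0.16 (95% interval -0.88 to 1.20, exact permutation p = 0.758) for Conv + OM(HFD) vs. Conv + PBS and 0.26 (95% interval -0.78 to 1.30, exact permutation p = 0.63) for Conv + LM vs. Conv + PBS.

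Log2 levels of Plin3 ran from 3.28 to 3.97 with a median of 3.56 in the 6 Conv + PBS livers. They were 3.94, 3.54, 3.43, 3.70 and 3.20 in Conv + LM mice 13 to 17. They were 4.40, 3.58, 3.48, 3.67 and 3.66 in Conv + OM(HFD) mice 25, 26, 28, 29 and 30. Plin3 encodes a perilipin that moves from the cytosol to nascent droplets. Conv + OM(HFD) mouse 25, 1 of the 2 livers with high neutrophil markers, had the highest value of all mice. The group means were 3.60 ± 0.26 (SD, n = 6) in Conv + PBS, 3.56 ± 0.28 (SD, n = 5) in Conv + LM and 3.76 ± 0.37 (SD, n = 5) in Conv + OM(HFD) mice. Conv + OM(HFD) mice differed from Conv + PBS mice by 0.16 (95% interval -0.22 to 0.53, exact permutation p = 0.465) and from Conv + LM mice by 0.19 (95% interval -0.20 to 0.59, exact permutation p = 0.413).

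Of the CIDE genes, Cideb, whose product helps load triglyceride on lipoproteins in hepatocytes, was the most even of the 10. Its log2 level ran from 7.12 to 7.53 with a median of 7.38 in the 6 Conv + PBS livers. The values were 7.49, 7.15, 7.55, 7.36 and 7.49 in Conv + LM mice 13 to 17. The values were 7.30, 7.40, 7.18, 7.35 and 7.36 in Conv + OM(HFD) mice 25, 26, 28, 29 and 30. The whole range over 16 mice was 0.44, and the within-group SD of 0.13 was below that of most genes (12.6% of genes had a smaller one). The difference between the Conv + OM(HFD) and the Conv + PBS livers was -0.034 (95% interval -0.22 to 0.15, exact permutation p = 0.643), and that between the Conv + LM and the Conv + PBS livers was 0.055 (95% interval -0.13 to 0.24, exact permutation p = 0.541).

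Cidec, on the log2 scale, ran from 0.70 to 1.98 with a median of 1.57 in the 6 Conv + PBS livers. Levels of 1.08, 1.45, 2.38, 1.35 and 3.51 were measured in Conv + LM mice 13 to 17. Levels of 1.71, 1.44, 1.16, 2.87 and 3.35 were measured in Conv + OM(HFD) mice 25, 26, 28, 29 and 30. Cidec encodes the protein that joins droplets into larger ones. The 3 highest livers were Conv + LM mouse 17 and Conv + OM(HFD) mice 29 and 30, while the other inoculated mice lay within or close to the range of the Conv + PBS mice. The group means were 1.49 ± 0.51 (SD, n = 6) in Conv + PBS, 1.95 ± 0.998 (SD, n = 5) in Conv + LM and 2.11 ± 0.95 (SD, n = 5) in Conv + OM(HFD) mice. The difference was 0.62 (95% interval -0.37 to 1.61, exact permutation p = 0.21) for Conv + OM(HFD) vs. Conv + PBS, a 1.54-fold higher mean, and 0.47 (95% interval -0.52 to 1.45, exact permutation p = 0.355) for Conv + LM vs. Conv + PBS, a 1.38-fold higher mean. Neither exceeded the spread between mice. Within slides 1 and 2 the first was 0.47 and 0.78, and the other was -0.34 and 1.04.

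Cidea, known from brown fat and from the fatty liver, was dim. Its probe was well above background in 2 of 6 Conv + PBS, 3 of 5 Conv + LM and 4 of 5 Conv + OM(HFD) livers, and it passed the filter with 9 arrays. The measured log2 level ran from -5.98 to -3.90 with a median of -4.37 in the 6 Conv + PBS livers. Conv + LM mice 13 to 17 gave -4.53, -5.39, -3.04, -3.45 and -2.79. Conv + OM(HFD) mice 25, 26, 28, 29 and 30 gave -4.08, -0.79, -3.52, -4.71 and -3.85. Conv + OM(HFD) mouse 26 was far above all others. Conv + LM mice 15, 16 and 17 and Conv + OM(HFD) mice 28 and 30 also lay above the highest Conv + PBS mouse, and the groups overlapped. The difference between the Conv + OM(HFD) and the Conv + PBS livers was the one nearest to the threshold among the 10 genes, at 1.20 (95% interval -0.15 to 2.55, exact permutation p = 0.0823). It was 0.55 without Conv + OM(HFD) mouse 26 and 1.53 without Conv + OM(HFD) mouse 29. The latter was the only omission of a mouse that brought any of the 10 genes past an unadjusted limma p of 0.05 in a comparison. Within slide 1 it was 0.46 and within slide 2 it was 2.16. With other processing of the same arrays it was smaller in some settings, at 0.38 with normexp background correction and 0.55 in the authors' log2 values. It was larger in others, at 1.30 with quantile normalization and 1.27 with the slide as a block. The call did not change. For Conv + LM vs. Conv + PBS the difference was 0.75 (95% interval -0.60 to 2.10, exact permutation p = 0.212), with -0.68 within slide 1 and 1.82 within slide 2. Since most Conv + PBS values were not well above background, these differences compare signals near the limit of detection.

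The 3 genes of lipolysis passed no test between groups either. G0s2 encodes the inhibitor of the lipase encoded by Pnpla2. G0s2 (log2 level) ran from 3.20 to 5.95 with a median of 4.75 in the 6 Conv + PBS livers. Among Conv + LM mice 13 to 17 it was 4.23, 3.85, 4.61, 4.77 and 5.98. Among Conv + OM(HFD) mice 25, 26, 28, 29 and 30 it was 2.75, 4.14, 4.54, 5.66 and 5.57. Every group held livers both below 4.3 and above 5.5. The means were 4.66 ± 0.98 (SD, n = 6) in Conv + PBS, 4.69 ± 0.81 (SD, n = 5) in Conv + LM and 4.53 ± 1.19 (SD, n = 5) in Conv + OM(HFD) mice. The difference was -0.13 (95% interval -1.33 to 1.06, exact permutation p = 0.835) for Conv + OM(HFD) vs. Conv + PBS, an interval that reaches past 1 log2 unit in both directions.

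Pnpla2 had log2 levels that ran from 4.56 to 5.02 with a median of 4.78 in the 6 Conv + PBS livers. Conv + LM mice 13 to 17 stood at 4.50, 4.75, 4.50, 4.81 and 5.20. Conv + OM(HFD) mice 25, 26, 28, 29 and 30 stood at 4.48, 4.45, 4.72, 4.64 and 5.23. Pnpla2, the adipose triglyceride lipase, had a within-group SD of 0.26, near the median of all genes (54.2% had a smaller one). Conv + LM mouse 17 and Conv + OM(HFD) mouse 30 were the highest of their groups. The difference was -0.083 (95% interval -0.41 to 0.24, exact permutation p = 0.591) for Conv + OM(HFD) vs. Conv + PBS and -0.037 (95% interval -0.36 to 0.29, exact permutation p = 0.805) for Conv + LM vs. Conv + PBS.

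For Mgll, log2 levels ran from 5.50 to 6.06 with a median of 5.78 in the 6 Conv + PBS livers. The 5 Conv + LM mice (13 to 17) had 5.64, 5.65, 6.13, 5.52 and 6.10. The 5 Conv + OM(HFD) mice (25, 26, 28, 29 and 30) had 5.45, 6.00, 5.58, 6.13 and 6.41. Mgll, the monoglyceride lipase, had its highest value in Conv + OM(HFD) mouse 30 and its lowest in Conv + OM(HFD) mouse 25, so the widest spread was within that group. The difference was 0.12 (95% interval -0.25 to 0.50, exact permutation p = 0.528) for Conv + OM(HFD) vs. Conv + PBS and 0.016 (95% interval -0.36 to 0.39, exact permutation p = 0.911) for Conv + LM vs. Conv + PBS.

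Between the inoculated groups, Conv + OM(HFD) minus Conv + LM, the differences of the 10 genes ran from -0.16 for G0s2 to 0.45 for Cidea. For Plin5 this difference was 0.27 (95% interval -0.60 to 1.14, exact permutation p = 0.532), and it was 0.72 within slide 1 and 0.024 within slide 2. For Cidec it was 0.15 (95% interval -0.88 to 1.18, exact permutation p = 0.786), with 0.81 and -0.26 within the slides.

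**Figure D2:**
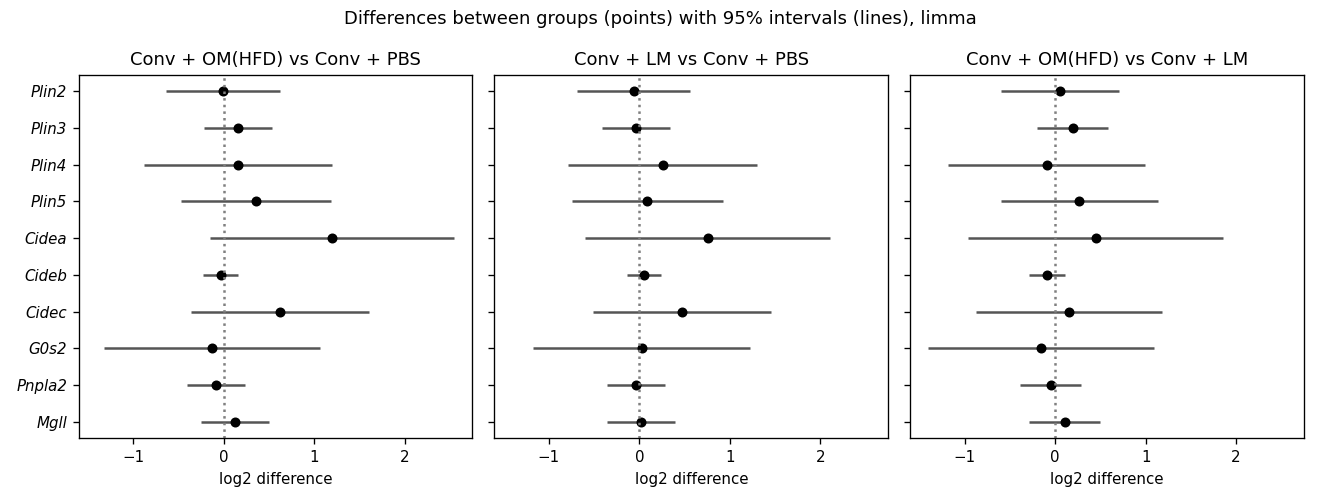
Differences in log2 level between groups for the 10 genes (points, first group minus second) with 95% intervals from limma (lines), 1 panel for each comparison. Every interval includes 0, the interval of Cideb is the narrowest and that of Cidea the widest.

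Each of 4 genes had a pair of probes, and 3 of these pairs rose and fell together over the 16 mice. Within groups the probes of Plin5 correlated with r = 0.98, those of Mgll with r = 0.95 and those of Plin2 with r = 0.94, while those of Cideb correlated with r = 0.25. The first 30 of the 60 bases of the probes of Plin5 and Cideb show what was measured in a pair that moved together and in one that did not. In mm9, the build of the array design, the Plin5 probes lie at chr17:56251025-56251084 and chr17:56251101-56251160, and the Cideb probes at chr14:56372942-56373001 and chr14:56377150-56377209, all matching the minus strand. Annotation of mm9 was not used here, so exon and UTR were not assigned.
Plin5 probe with the higher mean signal: tccagagactcaattgctttgctgtttgtg
Plin5 probe with the lower mean signal: gctggaggaagacctggtgcccacatcatc
Cideb probe with the higher mean signal: ggtttttactgacgcctacccctaagatcc
Cideb probe with the lower mean signal: ttatacaaaaaagcaagaacaacagagaag
The Plin5 probes are neighbours on the chromosome, while the Cideb probes lie several kilobases apart. All 4 probes were well above background on all arrays. The probe with the higher mean over all arrays stood for each gene.

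For most droplet genes the spread between mice of a group was wider than the differences between group means. The within-group SD was 1.004 for G0s2 (98.0% of all genes had a smaller one), 0.87 for Plin4 (96.8%), 0.83 for Cidec (96.1%), 0.70 for Plin5 (93.2%) and 0.52 for Plin2 (85.9%), where the median gene had 0.24. It was 0.30 for both Plin3 and Mgll. To describe this spread, each gene was compared with the mean of 27 genes that fasting and PPARα are known to induce, such as Pdk4, Cpt1a, Cyp4a14 and Acot1. None of the 10 droplet genes is in that list. List and genes were centred on their group means, so that only differences between mice of the same group counted. The list genes did not all follow their own mean. Their correlation with it ran from -0.10 for Cd36 and -0.060 for Ppargc1a to 0.97 for Cyp4a14, with 0.43 for Cpt1a. The mean was not scaled, so genes with a wide spread, such as Pdk4 (within-group SD 2.03), weighed most. The list mean ranged from -0.66 in Conv + PBS mouse 2, -0.65 in Conv + OM(HFD) mouse 25 and -0.62 in Conv + LM mouse 13 to 0.61 in Conv + PBS mouse 6 and 0.62 in Conv + LM mouse 17. Each group thus held livers at both ends.

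Of the 10 droplet genes, 7 had a slope on the fasting list at an adjusted p under 0.05 in limma, where 7.1% of all genes did. A positive slope was called for 6 of them (3.86% of all genes) and a negative slope for 1 (3.25% of all genes). At an unadjusted p under 0.05 the same 7 genes passed, where 22.3% of all genes did. The median slope of the 10 genes was 0.75, and that of all genes 0.039.

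G0s2 followed the list most steeply. Its slope was 1.99 ± 0.23 (SE, n = 16), with an adjusted p of 0.000474 over all genes in limma, and Pearson's r = 0.92 (permutation p = 1e-05) and Spearman's rho = 0.91 (permutation p = 2e-05). The fitted change over the range of the list was 2.54 on the log2 scale. The measured levels of the livers at the ends of the list ran from 2.75 in Conv + OM(HFD) mouse 25 and 3.20 in Conv + PBS mouse 2 to 5.98 in Conv + LM mouse 17 and 5.95 in Conv + PBS mouse 6. The correlation was 0.90 within slide 1 and 0.92 within slide 2, and 0.88 without the 2 mice farthest from the middle of the list, Conv + PBS mouse 2 and Conv + OM(HFD) mouse 25. A permutation p of 1e-05 is the smallest that these permutations can give.

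Plin5 had the next highest correlation and a slope of 1.35 ± 0.17 (SE, n = 16), with an adjusted p of 0.00109 over all genes in limma, and Pearson's r = 0.90 (permutation p = 3e-05) and Spearman's rho = 0.88 (permutation p = 8e-05). The correlation was 0.93 within slide 1, 0.87 within slide 2 and 0.87 without the same 2 mice. The slope of Cidec was 1.41 ± 0.29 (SE, n = 16), with an adjusted p of 0.0119 over all genes in limma, and Pearson's r = 0.79 (permutation p = 0.00067) and Spearman's rho = 0.78 (permutation p = 0.00126). Its correlation was 0.80 within slide 1, 0.86 within slide 2 and 0.86 without the 2 mice. The slopes of G0s2, Plin5 and Cidec had an adjusted p under 0.05 in limma after each of the 16 mice was left out in turn.

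Plin4, Plin2 and Mgll rose with the list too. The slope of Plin4 was 1.42 ± 0.33 (SE, n = 16), with an adjusted p of 0.0196 over all genes in limma, and Pearson's r = 0.76 (permutation p = 0.00198) and Spearman's rho = 0.79 (permutation p = 0.00138). The slope of Plin2 was 0.80 ± 0.21 (SE, n = 16), with an adjusted p of 0.0362 over all genes in limma, and Pearson's r = 0.71 (permutation p = 0.00294) and Spearman's rho = 0.73 (permutation p = 0.00326). The slope of Mgll was 0.49 ± 0.12 (SE, n = 16), with an adjusted p of 0.0257 over all genes in limma, and Pearson's r = 0.76 (permutation p = 0.00208) and Spearman's rho = 0.74 (permutation p = 0.00278). Leaving out the 2 farthest mice gave r = 0.73 for Plin4, 0.74 for Plin2 and 0.71 for Mgll. The slopes of Plin2 and Mgll were below 1 and those of G0s2, Plin5, Cidec and Plin4 above it, and the differences between slopes were not tested. Within slide 1 and slide 2 the correlations were 0.77 and 0.84 for Plin4, 0.64 and 0.71 for Plin2, and 0.75 and 0.66 for Mgll.

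Plin3 went the other way, with a slope of -0.50 ± 0.12 (SE, n = 16), with an adjusted p of 0.0244 over all genes in limma, and Pearson's r = -0.76 (permutation p = 0.00174) and Spearman's rho = -0.63 (permutation p = 0.0172). Its correlation was -0.80 within slide 1 and -0.63 within slide 2, and -0.63 without the 2 farthest mice. The livers lowest on the list, Conv + PBS mouse 2, Conv + OM(HFD) mouse 25 and Conv + LM mouse 13, had the highest Plin3 level of their groups (3.97, 4.40 and 3.94).

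The slopes of the other 3 genes did not pass. For Pnpla2 it was 0.23 ± 0.14 (SE, n = 16), with an adjusted p of 0.366 over all genes in limma, for Cidea 0.71 ± 0.62 (SE, n = 16), with an adjusted p of 0.536 over all genes in limma, and for Cideb -0.011 ± 0.088 (SE, n = 16), with an adjusted p of 0.956 over all genes in limma. The lipase encoded by Pnpla2 and its inhibitor G0s2 thus stood on different sides of the threshold. For Pnpla2 the correlation with the list was 0.88 within slide 1 and 0.17 within slide 2.

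**Figure D3:**
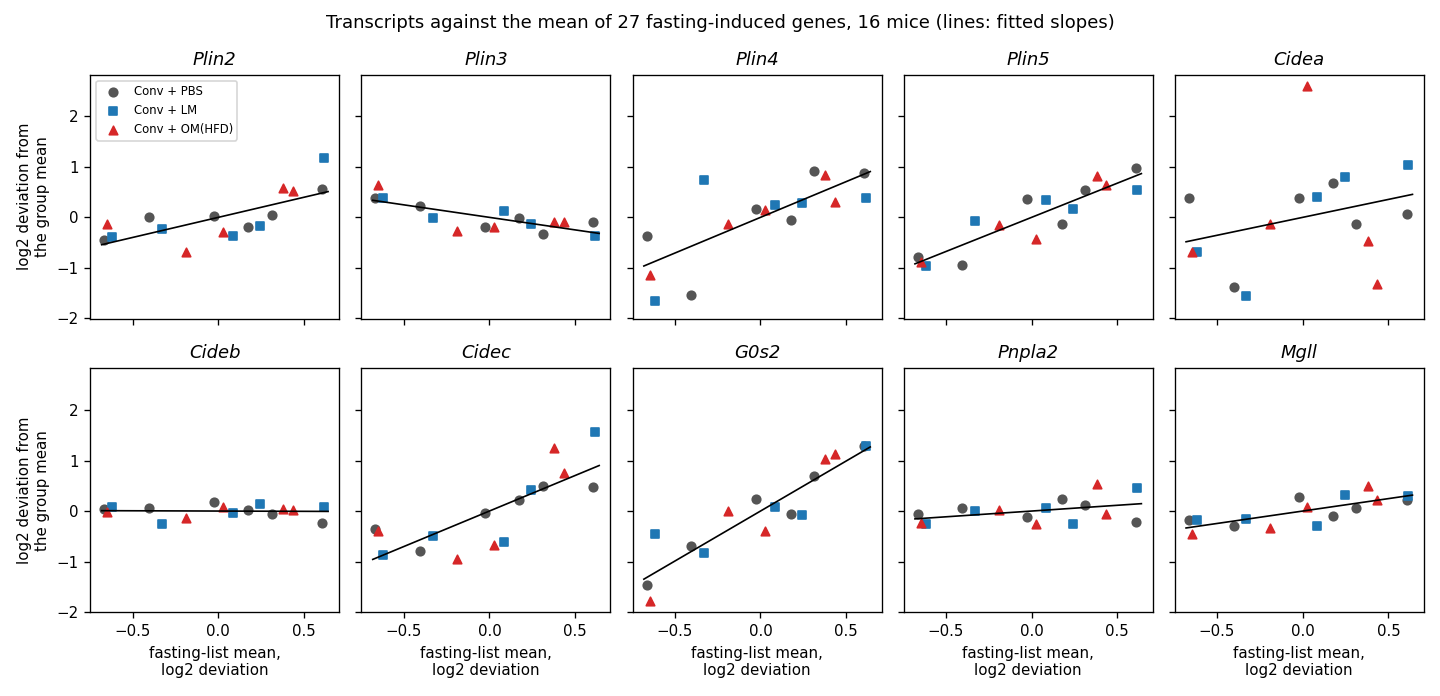
Deviation of each gene from its group mean (vertical, log2) against the mean deviation of 27 fasting-induced genes (horizontal, log2) in 16 mice, with the slope of the limma fit as a line and the same symbols as for the levels by mouse. G0s2, Plin5, Cidec and Plin4 rise steeply, Plin2 and Mgll less so, Plin3 falls, and Cideb is flat.

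The count of 7 depended on a few livers. It was 4 without Conv + PBS mouse 6, Conv + LM mouse 13, Conv + LM mouse 17 or Conv + OM(HFD) mouse 25, each left out alone, where 3.04% to 4.44% of all genes passed, and 4 to 7 over all 16 omissions, where 3.04% to 7.34% did. Without Conv + PBS mouse 1 and Conv + OM(HFD) mouse 25, the 2 livers with high neutrophil markers, 4 genes passed, beside 1.91% of all genes. These were G0s2 (slope 1.82, adjusted p = 0.00823), Plin5 (1.26, adjusted p = 0.014), Cidec (1.56, adjusted p = 0.0393) and Plin2 (1.02, adjusted p = 0.047). In the same fit Plin4 (1.105, adjusted p = 0.111), Mgll (0.42, adjusted p = 0.161) and Plin3 (-0.37, adjusted p = 0.162) kept their direction and did not pass. Over all 16 mice the correlation of the mean log2 level of the neutrophil markers with the fasting list was -0.51 (permutation p = 0.0596), with rho = -0.40 (permutation p = 0.135). Without these 2 livers the correlation was -0.24. As a description, the second probes of Plin2, Plin5 and Mgll, which the fits did not use, correlated with the list at 0.84, 0.89 and 0.75 over the 16 mice. With the slide as a block 4 genes passed, beside 4.53% of all genes. Plin3 (slope -0.52, adjusted p = 0.0551), Plin2 (0.76, adjusted p = 0.103) and Mgll (0.49, adjusted p = 0.07) were lost in that limma fit. Without a filter on dim probes 3 genes passed, beside 1.5%. With quantile normalization 5 passed, beside 6.81% of all genes, Plin2 (adjusted p = 0.0584) and Mgll (adjusted p = 0.0538) being lost. In the authors' log2 values 6 passed, beside 6.25% of all genes, and Mgll was lost (adjusted p = 0.0911).

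Genes of the circadian clock moved with the same spread. Arntl, which encodes the clock activator BMAL1, correlated with the fasting list at r = 0.92 (permutation p = 2e-05, rho = 0.87 with permutation p = 1e-04), and at 0.92 without the 2 mice farthest in Arntl. Dbp, a gene in opposite phase, correlated at r = -0.90 (permutation p = 4e-05, rho = -0.89 with permutation p = 8e-05). The Arntl level ran from -2.33 to 0.20 in Conv + PBS, from -2.73 to 0.32 in Conv + LM and, among Conv + OM(HFD) mice, from -2.28 to 0.74, so that each group held livers from the low to the high end. The slope on Arntl passed an adjusted p of 0.05 in limma for the same 7 droplet genes (8.26% of all genes). It was 0.62 ± 0.059 (SE, n = 16) for Plin5, with r = 0.95 (permutation p = 1e-05), 0.69 ± 0.12 for Plin4, with r = 0.84 (permutation p = 0.00035), and 0.82 ± 0.13 for G0s2, with r = 0.87 (permutation p = 9e-05). Without the 2 livers with high neutrophil markers 5 of the 10 genes passed (3.21% of all genes): Plin5, G0s2, Plin4, Cidec and Plin2. Plin3 (adjusted p = 0.133) and Mgll (adjusted p = 0.0853) did not.

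With Arntl in the model beside the fasting list, 0 of the 10 droplet genes and 0% of all genes had a slope on the list at an adjusted p under 0.05 in limma, and 4.22% of all genes did at an unadjusted p under 0.05. The slope of G0s2 on the list was then 1.70 ± 0.58 (SE, n = 16), at an unadjusted limma p of 0.0116 and an adjusted p of 0.999. It was the only 1 of the 10 genes at an unadjusted p under 0.05. The slope of Plin5 fell to 0.33 ± 0.33 and that of Cidec to 0.72 ± 0.72, and the slope of Plin4 was -0.18 ± 0.70. In the same model Plin5 had a slope on Arntl at an unadjusted limma p of 0.0051 (0.49, adjusted p = 0.882) and Plin4 at 0.0272 (0.76, adjusted p = 0.882). The share of all genes at an unadjusted p under 0.05 for that slope is not given here. The list and Arntl share most of their variation over these mice, and their parts in the slopes cannot be told apart here. The time at which each mouse was killed is not given in the sources used here.

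**Figure D4:**
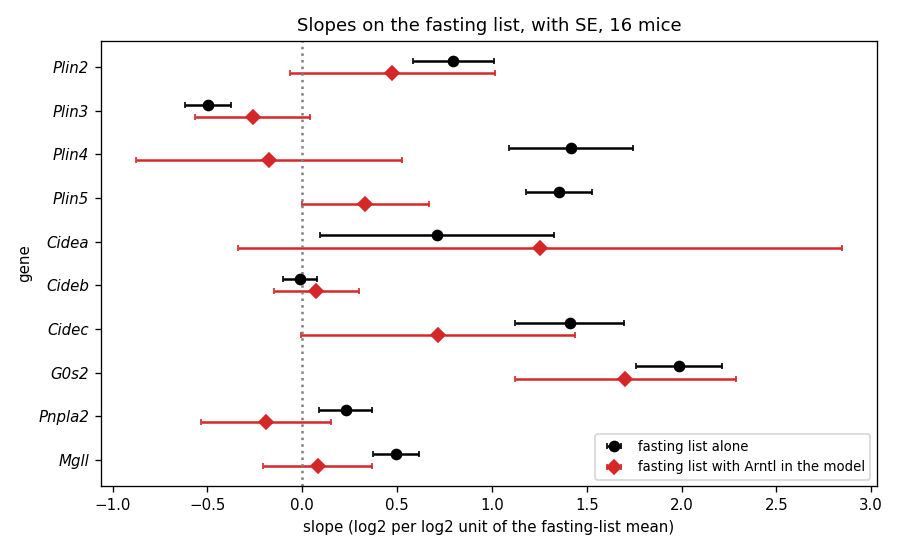
Slope of each gene on the mean of the fasting list (log2 per log2 unit) with its SE over 16 mice, with the list alone (black circles) and with the Arntl level added to the model (red diamonds). With Arntl in the model the SEs widen and no slope has an adjusted p under 0.05. The slope is then 1.70 for G0s2, 0.33 for Plin5, 0.080 for Mgll and -0.18 for Plin4.

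Array brightness and cell type markers were set beside the fasting list in the same way. The correlation was -0.44 for the 75th percentile of the signal (permutation p = 0.116, rho = -0.40 with permutation p = 0.153), and with it in the model 4 droplet genes had an adjusted p under 0.05, beside 3.72% of all genes. It was 0.34 for the adipocyte markers (permutation p = 0.251, rho = 0.20 with permutation p = 0.483). The log2 of the summed level of the 7 adipocyte markers tested lay between 7.87 and 8.67 in Conv + PBS, between 8.17 and 8.78 in Conv + LM and between 7.75 and 8.54 in Conv + OM(HFD) mice. Car3 made up nearly all of this sum, with group means of 8.10 to 8.46, so the sum describes that gene. Hepatocytes are also known to express Car3. The correlations of marker lists given here do not use the sum. They use the mean of the log2 levels of the tested markers, in which each marker weighs the same. Cfd had group means of -2.21 in Conv + PBS, -0.58 in Conv + LM and -2.48 in Conv + OM(HFD) mice. The correlation with the fasting list was 0.47 for the hepatocyte, 0.44 for the stellate cell, 0.17 for the muscle and -0.29 for the Kupffer cell markers, beside -0.51 for the neutrophil markers. Without the 2 mice farthest in each marker list it was 0.60 for the hepatocyte, 0.16 for the stellate cell, 0.52 for the muscle and 0.17 for the Kupffer cell markers. For the stellate cell and the Kupffer cell markers these mice were the 2 livers with high neutrophil markers. Plin4 moved with the stellate cell markers about as closely as with the fasting list, at 0.76. As a description over the same 16 mice, these markers correlated with Plin3 at -0.62 and with Mgll at 0.57. The hepatocyte markers correlated with Plin5 at 0.69 and with Plin4 at 0.62, and the neutrophil markers with Plin4 at -0.59, Plin3 at 0.56 and G0s2 at -0.55. The log2 of the summed level of the 7 stellate cell markers lay between 6.33 and 6.78 in Conv + PBS, between 6.27 and 6.75 in Conv + LM and between 6.08 and 6.58 in Conv + OM(HFD) livers. That of the 8 hepatocyte markers lay between 12.7 and 13.1 over all mice. The part of cell makeup in the slopes was not tested.

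A list of 18 genes of fatty acid synthesis, the fed counterpart, gave no call. On its mean 0 of the 10 droplet genes had a slope at an adjusted p under 0.05 in limma (0.0539% of all genes, 0.0441% rising and 0.0098% falling), and 2 did at an unadjusted p under 0.05 (14.5% of all genes). The steepest were those of G0s2, at -2.53 ± 0.80 (SE, n = 16, adjusted p = 0.212), with Pearson's r = -0.64 (permutation p = 0.00875) and Spearman's rho = -0.67 (permutation p = 0.00868), and of Plin5, at -1.59 ± 0.59 (adjusted p = 0.259), with Pearson's r = -0.58 (permutation p = 0.0235) and Spearman's rho = -0.55 (permutation p = 0.0345). The fasting and the lipogenic list were themselves opposed over the mice, with r = -0.67 (permutation p = 0.0116) and rho = -0.64 (permutation p = 0.016).

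The droplet genes were also compared with each other in pairs. Of 45 pairs of the 10 genes, 32 had a positive correlation of their deviations from group means. The share of positive pairs among all genes is not given here, so this count has no background. An adjusted p under 0.05 in limma, adjusted over all genes for the first gene of the pair, was reached by 6 pairs. The background of such calls was 8.6% of all genes for Plin5, 7.95% for G0s2, 2.49% for Plin4, 0.99% for Plin3, 0.559% for Plin2, 0.314% for Cidec and 0% for Mgll, Pnpla2, Cidea and Cideb. The genes were taken in the order Plin2, Plin3, Plin4, Plin5, Cidea, Cideb, Cidec, G0s2, Pnpla2 and Mgll, and the call depended on this order. Of 10 pairs called with either gene first, 3 were called both ways: Plin2 with Cidec, Plin4 with Plin5 and Plin5 with G0s2. With the order turned 7 pairs were called. The coat protein genes Plin4 and Plin5, which are neighbours on chromosome 17, had r = 0.87 (permutation p = 8e-05, rho = 0.90 with permutation p = 8e-05, adjusted p = 0.0106). Plin2 and Cidec had r = 0.87 (permutation p = 0.00058, rho = 0.82 with permutation p = 0.00084, adjusted p = 0.0215). Plin5 was called with 3 more genes: G0s2 with r = 0.89 (permutation p = 6e-05, rho = 0.88 with permutation p = 0.00011, adjusted p = 0.00114), Cidec with r = 0.74 (permutation p = 0.00158, rho = 0.81 with permutation p = 0.0006, adjusted p = 0.0193), and Mgll with r = 0.73 (permutation p = 0.0033, rho = 0.72 with permutation p = 0.00561, adjusted p = 0.0312). The sixth pair was G0s2 and Mgll, with r = 0.74 (permutation p = 0.00381, rho = 0.65 with permutation p = 0.0135, adjusted p = 0.0303). Plin3 had negative values with 8 of the other 9 genes, the lowest with G0s2 at r = -0.75 (permutation p = 0.00301, rho = -0.66 with permutation p = 0.0108, adjusted p = 0.0562), which was not called in this order and was with G0s2 first (adjusted p = 0.0256). Pnpla2 and G0s2, lipase and inhibitor, had r = 0.45 (permutation p = 0.118, rho = 0.40 with permutation p = 0.156, adjusted p = 0.312). The count of pairs was 2 to 11 over the omissions of a mouse, lowest without Conv + OM(HFD) mouse 30 and highest without Conv + OM(HFD) mouse 28. It was 3 without Conv + PBS mouse 6, Conv + LM mouse 17 or Conv + OM(HFD) mouse 29. Without the 2 livers with high neutrophil markers it was also 3, and 28 pairs had a positive correlation. The background of such calls after an omission is not given here.

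**Figure D5:**
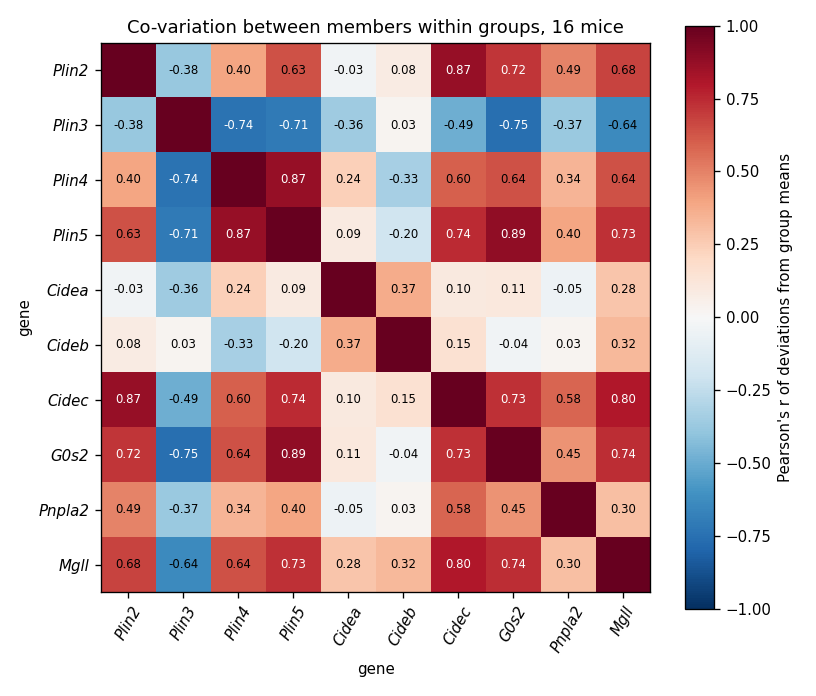
Pearson correlation between the 10 genes over 16 mice, computed on deviations from group means (red positive, blue negative, values printed in the cells). Plin2, Plin4, Plin5, Cidec, G0s2 and Mgll are positive with each other, from 0.40 to 0.89, Plin3 is negative with all of them, and Cidea and Cideb have no |r| above 0.37 with any of the others.

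The promoters of the 6 genes that rose with the list are shown, since these members shared a direction. RefSeq promoter sequences (GRCm38.p6) were at hand for 9 of the 10 genes, with 12 start sites. Each line gives the 250 bases before the first listed start site, 5′ to 3′ on the strand of the gene, with capitals for the nuclear receptor motif AGGTCA or the E-box CACGTG on either strand. No UTR is included.
G0s2, chr1:193273189-193273438, minus strand: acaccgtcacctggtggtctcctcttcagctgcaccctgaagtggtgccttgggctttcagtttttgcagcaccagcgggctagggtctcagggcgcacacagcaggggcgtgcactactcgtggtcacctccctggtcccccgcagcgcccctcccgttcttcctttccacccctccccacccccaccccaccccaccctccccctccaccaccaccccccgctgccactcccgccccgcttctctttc
Plin5, chr17:56117549-56117798, minus strand: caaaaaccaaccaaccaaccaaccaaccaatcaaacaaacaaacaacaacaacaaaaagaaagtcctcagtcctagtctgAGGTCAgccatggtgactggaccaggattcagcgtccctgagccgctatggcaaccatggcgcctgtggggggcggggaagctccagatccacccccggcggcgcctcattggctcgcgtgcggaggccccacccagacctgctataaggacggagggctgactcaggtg
Cidec, chr6:113435761-113436010, minus strand: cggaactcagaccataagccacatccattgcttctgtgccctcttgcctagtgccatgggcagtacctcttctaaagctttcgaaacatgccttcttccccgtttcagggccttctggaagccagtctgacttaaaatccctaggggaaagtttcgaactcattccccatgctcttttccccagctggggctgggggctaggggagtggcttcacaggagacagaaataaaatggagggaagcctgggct
Plin4, chr17:56109783-56110032, minus strand: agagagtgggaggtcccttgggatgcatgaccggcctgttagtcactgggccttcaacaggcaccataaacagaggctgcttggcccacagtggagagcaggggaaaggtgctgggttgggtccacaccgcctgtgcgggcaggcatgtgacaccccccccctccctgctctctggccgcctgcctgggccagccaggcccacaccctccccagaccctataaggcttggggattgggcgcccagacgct
Plin2, chr4:86670060-86670309, minus strand: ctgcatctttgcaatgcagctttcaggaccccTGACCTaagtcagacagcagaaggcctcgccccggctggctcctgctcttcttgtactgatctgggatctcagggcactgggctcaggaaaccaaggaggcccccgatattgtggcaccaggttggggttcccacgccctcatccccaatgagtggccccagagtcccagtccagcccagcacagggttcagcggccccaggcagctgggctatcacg
Mgll, chr6:88724162-88724411, plus strand: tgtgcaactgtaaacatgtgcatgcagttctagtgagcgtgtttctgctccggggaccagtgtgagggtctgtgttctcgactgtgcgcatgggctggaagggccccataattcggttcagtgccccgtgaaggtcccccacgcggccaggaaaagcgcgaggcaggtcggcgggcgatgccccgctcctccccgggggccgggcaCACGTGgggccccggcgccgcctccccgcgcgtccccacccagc
AGGTCA begins 170 bases before the start site of Plin5 and stands on the opposite strand, as TGACCT, 218 bases before that of Plin2. CACGTG begins 44 bases before the start site of Mgll. Neither motif was in the 250 bases shown for G0s2, Cidec and Plin4 or at any other of the 12 start sites. Of all 32851 promoter windows of this length, 4607 (14%) hold AGGTCA and 1978 (6.02%) hold CACGTG. A match is a run of letters and was not tested as a binding site.

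Among 17027 genes well above background on all 16 arrays, those whose deviations were most like each droplet gene were named by the highest Pearson correlation over the 16 mice, with no test. For G0s2 they were Pdk4 (r = 0.96), Slc25a34 (r = 0.96) and Ak6 (r = 0.96). Pdk4, which encodes the kinase that shuts down pyruvate dehydrogenase in fasting, is a member of the fasting list. For Plin5 they were Cdkn1a (r = 0.96), Hnf4a (r = 0.96) and Arl4a (r = 0.95). Hnf4a encodes a nuclear receptor of hepatocytes and Cdkn1a an inhibitor of the cell cycle. For Plin2 they were Hspb8 (r = 0.92), Slc35c1 (r = 0.91) and Ehhadh (r = 0.91), of which Ehhadh, an enzyme of peroxisomal fatty acid oxidation, is in the fasting list. For Plin4 they were Asic5 (r = 0.97), Sltm (r = 0.93) and Plekha1 (r = 0.91). For Cidec they were Eef1e1 (r = 0.95), 5730407M17Rik (r = 0.93) and Leng1 (r = 0.92). For Mgll they were Ephx2 (r = 0.92), Palld (r = 0.92) and Mapkapk5 (r = 0.91), and Ephx2 encodes the soluble epoxide hydrolase. For Plin3 they were Ralb (r = 0.94), Iqce (r = 0.92) and Armc10 (r = 0.90). Next to Pnpla2 stood Peak1 (r = 0.88), Adgrl4 (r = 0.87) and R3hdm1 (r = 0.86). Next to Cideb stood Mrps18b (r = 0.91), Bcs1l (r = 0.90) and NAP058670-1 (r = 0.89), the last a probe without a gene symbol. Cidea was not well above background on all arrays and was not included.

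The other genes of droplets and lipolysis behaved alike in the group comparisons. Of a list of 43 genes, 40 were tested, and Aadacl2, Cav1 and Plb1 were not. At an unadjusted limma p under 0.05, 0 of 40 differed between the Conv + OM(HFD) and the Conv + PBS livers, 1 was lower in Conv + LM than in Conv + PBS mice (2.09% of all genes were lower), and 1 was lower in Conv + LM than in Conv + OM(HFD) mice (1.38% of all genes were). Both calls were Lipa, the lysosomal acid lipase, with a mean log2 level of 4.13 ± 0.093 (SD, n = 6) in Conv + PBS, 3.94 ± 0.12 (SD, n = 5) in Conv + LM and 4.15 ± 0.13 (SD, n = 5) in Conv + OM(HFD) mice. The difference was -0.19 ± 0.081 (SE) for Conv + LM vs. Conv + PBS and 0.22 ± 0.085 (SE) for Conv + OM(HFD) vs. Conv + LM. Neither passed adjustment over all genes in limma (adjusted p = 0.998 and 0.999). The first call was lost without Conv + PBS mouse 3, 4 or 6 or Conv + LM mouse 14 or 17, and the other without Conv + LM mouse 14 or 17 or Conv + OM(HFD) mouse 26 or 30, each left out alone.

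On the fasting list 9 of the 40 genes had a positive slope at an adjusted p under 0.05 in limma and 0 a negative one, where 3.86% and 3.25% of all genes did. The following, with Abhd5 and Dgat2, were named after their values were seen. Acsl1, which activates long-chain fatty acids, had a slope of 0.83 ± 0.10 (SE, n = 16, adjusted p = 0.000732). Fitm2, which helps droplets bud from the endoplasmic reticulum, had 0.70 ± 0.10 (adjusted p = 0.00196). Hsd17b11, a droplet dehydrogenase, had 0.58 ± 0.094 (adjusted p = 0.00363). Hilpda, another inhibitor of the lipase encoded by Pnpla2, had 1.14 ± 0.23 (adjusted p = 0.0111). The others were Abhd6, Lpin1, Spast, Ces1d and Lipe, the hormone-sensitive lipase, which is also in the adipocyte marker list, with slopes from 0.31 to 1.23. Abhd5, the activator of the lipase encoded by Pnpla2, had 0.26 ± 0.11 (adjusted p = 0.169), and Dgat2, which makes triglyceride, had 0.014 ± 0.078 (adjusted p = 0.934). The count of 9 was 4 without the 2 livers with high neutrophil markers, where 1.91% of all genes passed in either direction, and 0 with Arntl in the model, where 0% did.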

How the data were processed

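Liver RNA of 16 mice was measured on 1 single-dye Agilent array each. The authors extracted each spot's intensity with Agilent Feature Extraction 10.10.1.1, and the deposited intensity used here was corrected for background within each array and not between arrays. A second deposited table holds log2 values of the authors, which matched log2 of the median intensity after quantile normalization (r of at least 0.9997 with each array, column medians 5.49 to 5.52), and which served as an alternative. Control and flagged spots were left out (1785 of 948880 values), spots of a probe were averaged, log2 was taken and each array's 75th percentile was subtracted. Probes that stood well above background on 5 or more of the 16 arrays were kept, and the probe with the highest mean stood for a gene. Groups came from the labels.

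Groups were compared with limma 3.58.1 in R 4.3.3, all 3 groups in 1 fit, with Benjamini-Hochberg adjustment over 20400 genes. Slopes were fitted with group and the centred list mean in the model. Correlations used 100000 permutations of mice within groups, and single genes an exact permutation test, whose smallest p is 0.00216 for 5 against 6 mice and 0.00794 for 5 against 5. Python 3.11.15 with matplotlib 3.10.9 drew the plots. All 10 genes were named, of the other list those at p under 0.05 in a comparison, and the 3 genes most alike to each of the 9 genes well above background on all arrays. Other genes named with the fasting list were chosen after their values were seen. The genes, lists and tests were chosen with earlier results of these data known. The fits were tested on simulated data.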

Additional observations from a re-analysis of the deposited data

Results flagged for a closer look

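In 3 of the 30 sets of values checked (10 genes in 3 groups), 1 mouse stood apart from the others of its group, where chance gives about 1 in 20. Plin2 was 7.83 in Conv + LM mouse 17, and the nearest mouse of that group had 6.49. This liver also had the highest Cidec, G0s2, Plin5 and Pnpla2 levels of its group. Plin3 was 4.40 in Conv + OM(HFD) mouse 25, and the nearest had 3.67. Plin4 was 2.33 in Conv + LM mouse 13, and the nearest had 4.22. Both livers lay at the low end of the fasting list in their groups.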

How the results depend on the processing

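The main alternatives were another background correction, other normalizations and filters, the mean of all probes, the slide as a block, array weights, a t-test and leaving out each mouse in turn. Another 6 were chosen after seeing the data: Arntl or the 75th percentile of the array in the model, 2 other forms of the fasting list, the omission of 2 livers and the turned order of the genes in a pair. No droplet gene passed an unadjusted p of 0.05 between groups in any of them but Cidea without Conv + OM(HFD) mouse 29, and none was called on the lipogenic list. G0s2, Plin5 and Cidec were called on the fasting list in every alternative in which its slopes were fitted, except with Arntl in the model. Its slopes were not fitted with array weights, with the t-test or in the fit of only the groups compared. Quantile normalization left 5 droplet genes called on it, with Plin2 (adjusted p = 0.0584) and Mgll (adjusted p = 0.0538) lost, and the authors' log2 values left 6, with Mgll (adjusted p = 0.0911) lost. The signals of 16 arrays limit the precision, and Cidea lay near the limit of detection. Its difference for Conv + OM(HFD) vs. Conv + PBS fell from 1.20 to 0.38 with normexp background correction and to 0.55 in the authors' log2 values. With quantile normalization this difference was 1.30.

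With normexp background correction, the sign turned: the slope on the lipogenic list was 0.0015 for Cidea. In the authors' log2 values, the count was 2 other list genes at p under 0.05 for Conv + OM(HFD) vs. Conv + LM, and the sign turned: the difference Conv + LM vs. Conv + PBS was -0.00094 for Mgll, the slope on the lipogenic list was 0.040 for Cidea. Without a filter on dim probes, the counts were 1 other list gene at p under 0.05 for Conv + OM(HFD) vs. Conv + PBS, 0 other list genes at p under 0.05 for Conv + LM vs. Conv + PBS, 3 droplet genes called on the fasting list, 4 other list genes called on the fasting list and 2 pairs called. With all probes of a gene averaged, the count was 2 other list genes at p under 0.05 for Conv + LM vs. Conv + PBS, and the sign turned: the difference Conv + LM vs. Conv + PBS was 0.0032 for Plin2, the difference Conv + OM(HFD) vs. Conv + LM was -0.011 for Plin2, the slope on the fasting list was 0.00027 for Cideb. With the slide as a block, the counts were 1 other list gene at p under 0.05 for Conv + OM(HFD) vs. Conv + PBS, 4 droplet genes called on the fasting list and 5 other list genes called on the fasting list, and the sign turned: the difference Conv + OM(HFD) vs. Conv + PBS was 0.029 for Plin2, the difference Conv + LM vs. Conv + PBS was -0.049 for G0s2 and -0.0045 for Mgll, the slope on the lipogenic list was 0.61 for Cidea. With array weights, the count was 0 other list genes at p under 0.05 for Conv + LM vs. Conv + PBS, and the sign turned: the difference Conv + OM(HFD) vs. Conv + PBS was 0.024 for Plin2 and 0.13 for G0s2. With Arntl in the model, the counts were 0 droplet genes called on the fasting list and 0 other list genes called on the fasting list, and the sign turned: the slope on the fasting list was -0.18 for Plin4, 0.074 for Cideb and -0.19 for Pnpla2. With the 75th percentile of the array in the model, the counts were 4 droplet genes called on the fasting list and 5 other list genes called on the fasting list. With the fasting list without Pdk4, Cyp4a14 and Acot1, its 3 most variable genes, the count was 5 other list genes called on the fasting list, and the sign turned: the slope on the fasting list was 0.0023 for Cideb. With the fasting list genes scaled to an SD of 1, the sign turned: the slope on the fasting list was 0.0087 for Cideb. Without the 2 livers with high neutrophil markers, the counts were 1 other list gene at p under 0.05 for Conv + OM(HFD) vs. Conv + PBS, 2 other list genes at p under 0.05 for Conv + OM(HFD) vs. Conv + LM, 4 droplet genes called on the fasting list, 4 other list genes called on the fasting list and 3 pairs called, and the sign turned: the difference Conv + OM(HFD) vs. Conv + PBS was 0.026 for Plin2 and 0.18 for G0s2, the difference Conv + LM vs. Conv + PBS was 0.011 for Plin3, -0.053 for Plin4, -0.10 for Plin5, -0.12 for G0s2 and -0.042 for Mgll, the difference Conv + OM(HFD) vs. Conv + LM was 0.19 for Plin4, 0.29 for G0s2 and 0.010 for Pnpla2.

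Over the omissions of 1 mouse, the counts ranged over 0 to 1 droplet genes at p under 0.05 for Conv + OM(HFD) vs. Conv + PBS, 0 to 2 other list genes at p under 0.05 for Conv + OM(HFD) vs. Conv + PBS, 0 to 1 other list genes at p under 0.05 for Conv + LM vs. Conv + PBS, 0 to 4 other list genes at p under 0.05 for Conv + OM(HFD) vs. Conv + LM, 4 to 7 droplet genes called on the fasting list, 4 to 9 other list genes called on it and 2 to 11 pairs. Where the sign turned, Conv + OM(HFD) vs. Conv + PBS ranged from -0.15 to 0.16 for Plin2, -0.0031 to 0.23 for Plin3, -0.15 to 0.45 for Plin4, -0.082 to 0.00074 for Cideb, -0.42 to 0.31 for G0s2 and -0.0010 to 0.24 for Mgll, Conv + LM vs. Conv + PBS ranged from -0.36 to 0.052 for Plin2, -0.13 to 0.055 for Plin3, -0.053 to 0.67 for Plin4, -0.10 to 0.33 for Plin5, -0.30 to 0.28 for G0s2, -0.15 to 0.026 for Pnpla2 and -0.064 to 0.088 for Mgll, Conv + OM(HFD) vs. Conv + LM ranged from -0.091 to 0.35 for Plin2, -0.51 to 0.19 for Plin4, -0.20 to 0.78 for Cidea, -0.16 to 0.54 for Cidec, -0.44 to 0.29 for G0s2, -0.18 to 0.065 for Pnpla2 and -0.017 to 0.22 for Mgll, the slope on the fasting list ranged from -0.051 to 0.059 for Cideb, the slope on the lipogenic list ranged from -1.42 to 0.63 for Cidea and -0.053 to 0.25 for Cideb. No paired analysis was possible because the groups share no replicate number.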
